A study of Mus musculus with 248 samples.

Results

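The 16 blood libraries taken from the validation cohort at month 2 after induction are described here, 10 from mice of the arm labelled CM and 6 from mice of the arm labelled Ctrl, out of 248 libraries in the series. They were chosen by label: every column of the validation table that belongs to month 2 was used, with all 13607 genes of that table. The CM mice carry a conditional Cbfb-MYH11 allele together with the Mx1-Cre transgene (Cbfb+/56M/Mx1-Cre, labelled CHW), on a C57BL/6 background, and comprise 5 males and 5 females. The Ctrl mice are littermates that lack at least 1 of those alleles: 3 females labelled CW, 2 males labelled HW and 1 male labelled WT, so that genotype and sex cannot be told apart within that arm. Both arms received poly(I:C) at 14 mg/kg every other day for 7 doses at an age of 4 to 8 weeks. Mx1-Cre is switched on by interferon in blood-forming cells and in other tissues such as the liver, so the model is not limited to the blood. Each mouse gave 1 library, and all 16 are labelled as stranded preparations sequenced in batch D.

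Cbfb encodes the shared partner of the RUNX transcription factors, which open the blood programmes of stem cells, megakaryocytes and lymphocytes. The inversion that joins CBFB to MYH11, a smooth muscle myosin, gives the core binding factor leukemias of the CBFB-MYH11 type, in which the fusion protein blocks differentiation of stem and progenitor cells. Those cells carry the receptor KIT, and the study's labels define overt leukemia by more than 20% of KIT-positive blasts together with high white cell counts and a large spleen. The month-2 comparison asks how blood after induction of the fusion differs from blood of littermates given the same injections.

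The libraries held 14.6 to 26.01 M reads in CM mice and 15.9 to 22.2 M in Ctrl mice (M, 1e6 reads). The tissue is labelled PBMC, and markers of neutrophils (261 to 5022 CPM summed over 5 genes in CM mice and 1896 to 4740 in Ctrl mice), B cells, T cells, platelets and erythroid cells were all present. Globin transcripts took 0.18% to 13.3% of the reads in CM mice and 0.85% to 10.3% in Ctrl mice. A row that the table spells MHY11 checks the labels. It stood at 2.79 to 4.90 log2 CPM in 9 CM mice, at 2.86 and 2.78 in the HW controls, and at -3.22 to -1.83 in the other 4 controls. The library labelled CM of mouse 2700 went against its label, with 7 MHY11 reads (-1.45 log2 CPM), and the same mouse had 8 such reads at month 0, 19 at month 1 and 0 at month 3. Its level of C4b was 1.69 log2 CPM, against -0.42 in the highest Ctrl mouse, and its Mcpt1 level was 2.33, against -0.26. Mouse 2700 stayed in the CM arm as labelled, and the counts and Kit are also given without it. In mouse 2731, labelled female, Xist stood at 2.08 log2 CPM, against 8.96 to 10.33 in the other female CM mice and 9.61 to 10.22 in the female Ctrl mice. CM mouse 2690, also labelled female, had the lowest of those other Xist levels together with transcripts of the Y chromosome. Its Ddx3y stood at 4.06 and its Eif2s3y at 3.25 log2 CPM, against at most -0.70 and -1.86 in the other mice labelled female, and 6.80 to 7.83 over both genes in the males. Both mice were kept with their labelled sex; without the sex covariate 23 genes were called higher in place of 20.

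At month 2, 20 genes were higher in CM than in Ctrl blood and none was lower (limma, adjusted p under 0.05 over 13607 genes, with sex as a covariate). This is 0.147% of the genes tested as higher and 0% as lower, while an unadjusted p under 0.05 was reached by 1374 genes. The increases were large and fell on transcripts that were nearly absent from Ctrl blood: 15 of the 20 genes had at most 10 reads over all 6 Ctrl libraries together. The table keeps genes with at least 5 CPM in at least 2 samples. Genes with so few reads in these Ctrl libraries entered it through other libraries, so this pattern is in part set by the filter. The share of all genes with so few Ctrl reads was not counted. Among the 20 genes were the mast cell chymases Mcpt1 and Mcpt2, the carbonic anhydrase Car1, the complement component C4b, the collagen chain Col5a1 and the secreted factors Wnt2, Igf1 and Ccl24. In 13 of the 20 genes every CM library lay above every Ctrl library, beside 35 of all 13607 genes (0.257%). The 20 genes were called for a gap between the arms, so this count is no separate support. The count rested on the libraries used: it was 72 higher and 1 lower without CM mouse 2700, 10, 11 and 13 higher without CM mice 2684, 2690 and 2719, and 2, 11, 2, 3 and 7 without Ctrl mice 2683, 2689, 2692, 2702 and 2720. With voom on the recovered reads it was 0, and with the mouse as a block over months 0 to 3 it was 433 higher and 55 lower.

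**Figure D1:**
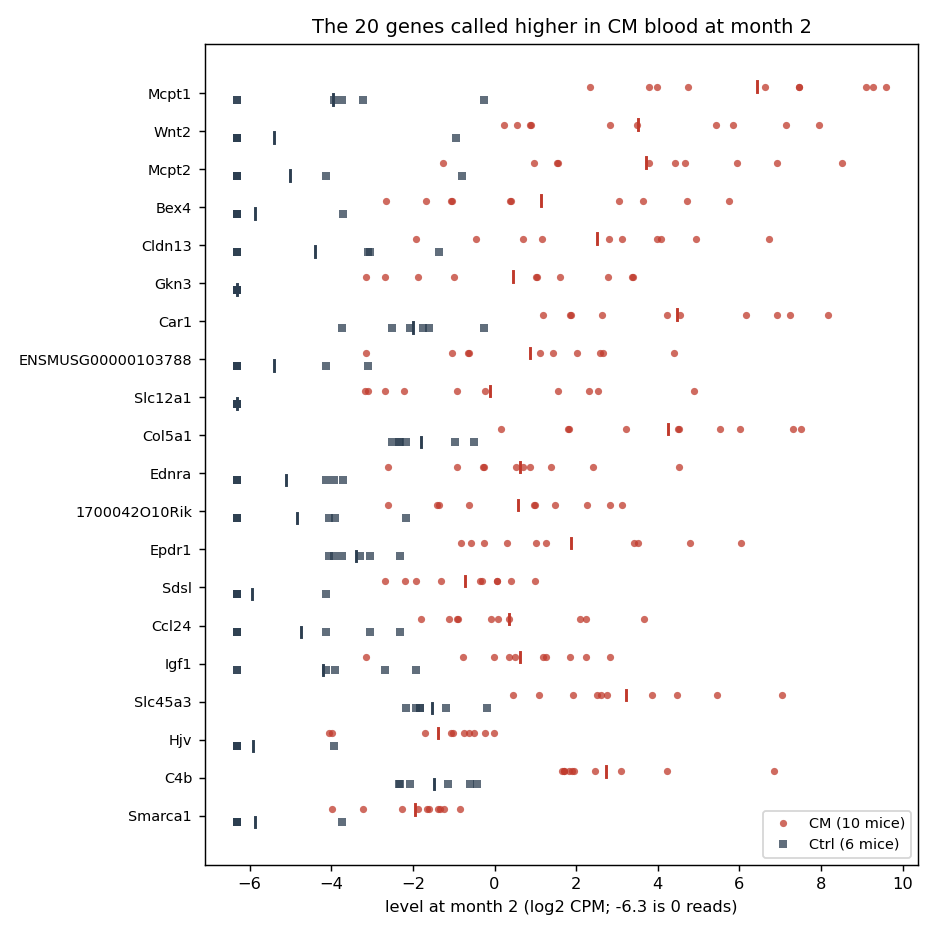
Levels (log2 CPM, horizontal axis) of the 20 genes called higher in CM blood at month 2, 1 gene per row, with CM mice as red circles above and Ctrl mice as dark squares below; each point is a mouse, short bars are arm means, and -6.3 is the level of 0 reads. Mcpt1 shows the widest gap between the arm means (6.44 in CM and -3.96 in Ctrl mice).

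Mcpt1, a chymase of mucosal mast cells, had the largest difference (ENSMUSG00000022227, GRCm38 chromosome 14, 56017964 to 56020391). Its level in CM mice ran from 2.33 in mouse 2700 over a median of 7.04 to 9.59 log2 CPM in mouse 2708, against -6.3 (0 reads) to -0.26 in Ctrl mice. The arms did not overlap, and 48017 reads in CM mice stood against 17 in Ctrl mice. The log2 fold change was 10.40 ± 1.19 (SE; limma adjusted p = 0.00213; higher in 10 of 10 CM mice), and Mcpt1 passed in all 16 fits that left out a mouse, as did Sdsl. Mcpt2, its neighbour on chromosome 14 and a close relative in sequence, rose by 8.72 ± 1.33 (adjusted p = 0.0155), and the counting could have split reads between the pair.

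Car1, which encodes an erythrocyte carbonic anhydrase, ranged from 1.19 over a median of 4.38 to 8.17 log2 CPM in CM mice and from -3.75 to -0.26 in Ctrl mice. Its log2 fold change was 6.47 ± 1.04 (limma adjusted p = 0.0180). Col5a1, a chain of type V collagen, ranged from 0.16 over a median of 4.51 to 7.51 in CM mice and from -2.52 to -0.50 in Ctrl mice, a log2 fold change of 6.04 ± 0.99 (adjusted p = 0.0198). Both genes were lowest among CM mice in 2700 and highest in 2731, and neither overlapped with Ctrl mice. Slc45a3, a member of the solute carrier family, stood at 0.45 to 7.03 in CM mice and -2.17 to -0.19 in Ctrl mice, a log2 fold change of 4.73 ± 0.80 (adjusted p = 0.0216).

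C4b, a component of the complement cascade (chromosome 17), was above every Ctrl mouse in 10 of 10 CM mice. Its levels lay between 1.64 and 1.95 log2 CPM in 6 of the 10 CM mice, 2700 and 2731 among them, against -2.33 to -0.42 in Ctrl mice. The highest level was 6.85 in mouse 2690, labelled female, whose library held Xist and also transcripts of the Y chromosome. The log2 fold change was 4.21 ± 0.66 (limma adjusted p = 0.0164), and 3.78 ± 0.45 without 2690 (adjusted p = 0.00400). In the library of mouse 2700 at month 3, C4b stood at -0.61 and Mcpt1 at -3.34 log2 CPM.

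The other calls lie outside the rule by which genes were chosen for naming and were picked after their values were seen. Wnt2, which encodes a secreted WNT ligand, had 11201 reads in CM and 8 in Ctrl mice, and its log2 fold change was 8.93 ± 1.29 (limma adjusted p = 0.0155). All 8 of those Ctrl reads came from mouse 2705. That mouse held 83 of the 243 Ctrl reads over the 20 genes (34.2%, against 14.0% of all Ctrl reads) and was the highest Ctrl mouse in 11 of them. Without it, 18 genes were called higher.

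Gkn3, a gastrokine of the stomach, and Slc12a1, the sodium-potassium-chloride cotransporter of the kidney, had 712 and 1043 reads in CM mice and 0 in Ctrl mice. Against a floor of 3 reads per library, the median CM mouse was at least 12.7-fold higher for Gkn3 and at least 4.27-fold higher for Slc12a1. In 6 further genes the Ctrl side rests on 1 to 3 reads in all, and their ratios, scaled to library size, carry wide 95% counting intervals. Ednra, the endothelin A receptor, had 712 reads in CM and 3 in Ctrl mice (ratio 138.3, interval 47.1 to 672). Mouse 2708 alone gave 432 of the CM reads, and without it, a setting chosen after seeing the data, the ratio was 60.2 (20.4 to 294); the log2 fold change, which weighs mice equally, was 5.75 ± 0.88 with it and 5.28 ± 0.73 without. Bex4 had 2308 reads in CM mice and 1 in Ctrl mice (ratio 1345, interval 241 to 53138). Mouse 2731 gave 1404 of the CM reads, and without it the ratio was 608 (108.9 to 24050); the log2 fold change was 7.02 ± 1.18 with it and 6.53 ± 1.07 without. Sdsl had 147 and 1 (85.7, 15.1 to 3406), Hjv, a co-receptor of bone morphogenetic proteins, 98 and 1 (57.1, 10.0 to 2278), and the chromatin remodeller Smarca1 55 and 1 (32, 5.52 to 1288). Igf1, the insulin-like growth factor, had 461 reads in CM and 9 in Ctrl mice, and the chemokine gene Ccl24 539 and 6. The remaining calls were Cldn13, a claudin, Epdr1, 1700042O10Rik and ENSMUSG00000103788, the last with 841 reads in CM and 3 in Ctrl mice (ratio 163, interval 55.7 to 794; 96.5, 32.8 to 470, without mouse 2708, which gave 46.6% of the CM reads). The counts behind Smarca1 and Hjv were small, with 8 and 19 reads in their highest CM libraries.

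Kit itself was above every Ctrl mouse in all 10 CM mice, yet did not pass across all genes. It stood at 2.56 to 9.02 log2 CPM in CM mice, with a median of 4.41, and at 1.16 to 1.87 in Ctrl mice, with a mean of 4.92 ± 1.88 over the CM mice against 1.55 ± 0.30 over the Ctrl mice (SD; n = 10 and 6). The log2 fold change was 3.37 ± 0.72 with a limma adjusted p of 0.115, and an exact two-sided permutation test of Kit alone gave p = 0.00025, the smallest it can give. Without mouse 2700 the log2 fold change was 3.69 ± 0.65 (limma adjusted p = 0.0171), and without mouse 2731 it was 2.91 ± 0.50 (adjusted p = 0.0248). With the mouse as a block over months 0 to 3 Kit also passed (3.37 ± 0.67, limma adjusted p = 0.00189). That fit shares its estimate of the spread over the months. The SD of Kit in CM mice was 0.35 at month 0, 0.58 at month 1, 1.88 at month 2 and 2.71 at month 3. Kit is 1 of 35 genes (0.257%) in which every CM library lay above every Ctrl library; in 3 genes (0.022%), Klra14-ps, Klra23 and Nudt7, every CM library lay below. Without 2700 these shares were 0.853% and 0.0367%.

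Cbfb, the gene that carries the knock-in, stood at 6.51 to 8.10 log2 CPM in CM and 6.66 to 7.62 in Ctrl mice, a log2 fold change of -0.15 ± 0.19 (limma adjusted p = 0.761). Runx1, its main partner in blood stem cells, stood at 6.58 to 8.67 in CM and 6.21 to 6.97 in Ctrl mice (0.45 ± 0.25, adjusted p = 0.512). In both genes the highest library was that of CM mouse 2731. Gstt1, a glutathione transferase, at 2.87 ± 0.68 (adjusted p = 0.172), and the mast cell carboxypeptidase Cpa3, at 3.78 ± 0.91 (adjusted p = 0.174), did not pass in the fit of month 2 alone; with the mouse as a block both passed (limma adjusted p = 0.0108 and 0.00483).

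The CM mice differed widely among themselves. The median over 12476 genes of the SD between mice was 0.43 log2 CPM in CM and 0.32 in Ctrl mice at month 2, against 0.24 and 0.17 at month 1 and 0.20 and 0.26 at month 0. Without mouse 2731 the value in CM mice at month 2 was 0.35. The first principal component held 52.1% of the variance. CM mice ran from -49.1 in mouse 2700 to 193 in mouse 2731, and Ctrl mice from -63.6 to -34.9. The CM mean was above the Ctrl mean (exact two-sided permutation test, p = 0.0015, adjusted over 4 components p = 0.00599). The genes with the highest loadings were Tph1, which makes serotonin, Mcpt1, Wnt2 and Mcpt2. For components 2 to 4 the difference between the arms did not pass (adjusted p = 0.625, 0.726 and 0.991, exact permutation tests). Component 2 held 14.6% of the variance, and its leading genes include Lrp2, Scd3 and Elovl3; summed with Krt5, Krt14, Dsc3, Pkp1 and Serpinb5, epithelial genes chosen after this was seen, they stood at 1.42 to 179 CPM in CM and 0.95 to 187 CPM in Ctrl mice.

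**Figure D2:**
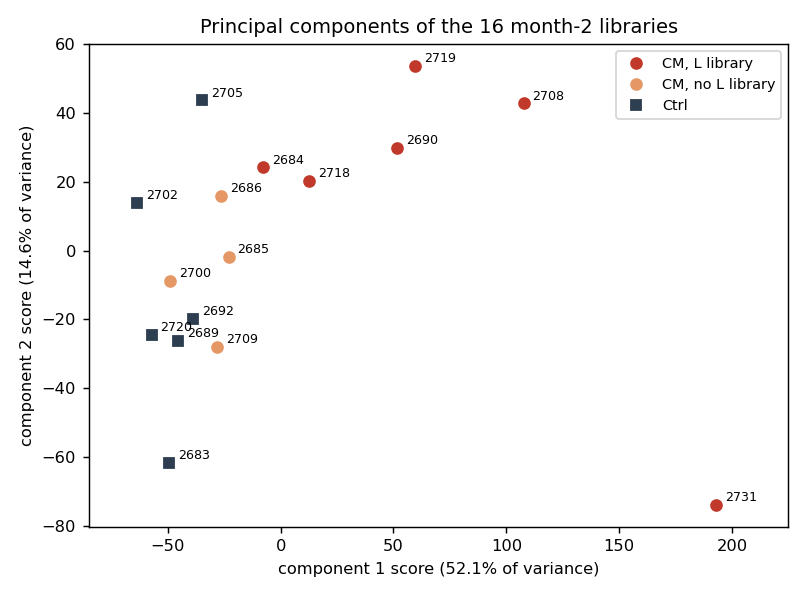
Scores of the 16 month-2 libraries on principal component 1 (horizontal, 52.1% of the variance) and component 2 (vertical, 14.6%), 1 point per mouse: CM mice with an L library in red, CM mice without in orange, Ctrl mice as dark squares. The 6 mice with an L library lie to the right of the other 4 CM mice, with mouse 2731 at 193 far from the rest.

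Few members of the lists of blood cell types and processes passed in the fit of month 2 alone, so each list is described by its members' log2 fold changes, beside a median of -0.02 and 47.9% of values above 0 over all genes. Many more passed at month 2 when the mouse was a block over months 0 to 3, a fit that shares its estimate of the spread over the months and called 3.18% of all genes higher and 0.404% lower. The log2 fold changes are the same in both fits, and the counts of that fit are given beside each list as blocked calls. The median SD between CM mice was 0.43 log2 CPM at month 2, against 0.20 and 0.24 at months 0 and 1. An estimate of the spread shared over the months can thus be too small for month 2, and the blocked calls too many. In bulk blood, more cells of a type and more RNA per cell cannot be told apart.

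Stem and progenitor genes had a median log2 fold change of 1.52, with 14 of 19 above 0 and 0 called; the blocked calls were 7 higher, namely Kit, Cd34, Erg, Gata2, Myb, Hlf and Lmo2. Cd34, a surface marker of progenitors, stood at -1.67 to 2.96 log2 CPM in CM and -1.43 to -0.11 in Ctrl mice (2.40 ± 0.55, limma adjusted p = 0.165), with 9 CM mice above the Ctrl range and mouse 2700 below it. Erg, an ETS factor needed by stem cells, stood at -1.45 to 5.89 in CM and -1.83 to -0.98 in Ctrl mice (adjusted p = 0.274). Flt3, a receptor of lymphoid and myeloid progenitors, had a log2 fold change of -0.30 ± 0.46 (adjusted p = 0.807), and Meis1 and Hoxa9, homeobox genes of stem cells, had 1.43 ± 0.49 and 3.31 ± 0.99 (adjusted p = 0.401 and 0.296).

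Mast cell and basophil genes had a median of 1.95, with 15 of 17 above 0 and Mcpt1 as the only call; 8 members were blocked calls, all higher, among them Ms4a2, Fcer1a, Il1rl1, Cpa3 and Tph1. The list's summed level was 199 to 18352 CPM in CM mice, with a median of 669.8, and 128.1 to 325 CPM in Ctrl mice. Ms4a2 and Fcer1a, subunits of the high-affinity IgE receptor, stood at 4.02 to 11.70 and 3.28 to 11.26 log2 CPM in CM and at 2.78 to 4.68 and 1.41 to 3.60 in Ctrl mice (adjusted p = 0.263 and 0.274). Il1rl1, the receptor for interleukin 33, stood at 3.58 to 11.98 in CM and 2.06 to 3.85 in Ctrl mice (adjusted p = 0.172). Other members lay closer to 0. Hdc, which makes histamine, had a log2 fold change of 0.88 ± 0.58, the basophil protease Mcpt8 1.01 ± 0.64 and the connective tissue chymase Cma1 -0.31 ± 0.91 (adjusted p = 0.555, 0.549 and 0.909), and the tryptase Tpsb2 had 3 reads in CM and 0 in Ctrl mice.

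Erythroid genes had the highest median of the lists, 2.44, with 22 of 22 above 0 and 1 call, Car1; 15 members were blocked calls, all higher. Klf1, the master regulator of the red cell lineage, stood at -0.70 to 6.52 log2 CPM in CM and -3.91 to 0.20 in Ctrl mice (4.27 ± 1.01, limma adjusted p = 0.172, and 0.00236 with the block). Slc4a1, the anion exchanger of the red cell membrane, stood at 6.23 to 11.59 in CM and 5.26 to 9.30 in Ctrl mice (2.19 ± 0.78, adjusted p = 0.424). Ctrl mice also differed among themselves: measured as the median of the members minus the Ctrl mean, the erythroid list stood at 1.9 in Ctrl mouse 2705 and at -1.7 in Ctrl mouse 2702. The 5 globin genes had a median log2 fold change of 0.88 and 0 calls in either fit. In mouse 2731 the erythroid list stood 4.3 above the Ctrl mean while the globin list stood 2.8 below it, at 0.18% of the reads.

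Proliferation genes lay above 0. The mitosis list had a median of 1.85, with 20 of 20 above 0, and the DNA replication list 0.94, with 19 of 20 above 0; neither had a call for month 2 alone, while the blocked calls were 11 and 5, all higher. Mki67, a marker of cycling cells, stood at 4.58 to 9.83 log2 CPM in CM and 4.08 to 5.71 in Ctrl mice (2.05 ± 0.73, limma adjusted p = 0.424, and 0.0265 with the block). The lists of nucleolar genes and of oxidative phosphorylation had medians of 0.31 and 0.26, with no call; Atp5b, of the second list, was a blocked call (higher).

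Lymphoid lists lay below 0. B cell genes had a median of -1.52, with 15 of 15 below 0, MHC class II genes -1.08 (10 of 10) and NK and cytotoxic genes -1.14 (14 of 14), with 0 calls in each. At month 0, before induction, the NK and cytotoxic list already had a median of -0.35, with 14 of 14 below 0 and 0 calls. Its CM effect at month 2 against month 0 had a median of -0.80, with 13 of 14 below 0. The blocked calls were 1 lower B cell gene, Vpreb3, and 6 lower NK and cytotoxic genes, namely Ncr1, Klrb1c, Klra8, Klra4, Gzma and Prf1. Klra8, an activating receptor of NK cells, stood at -2.59 to 3.90 in CM and 3.78 to 4.34 in Ctrl mice (-2.67 ± 0.74, limma adjusted p = 0.266). Ncr1, another NK receptor, stood at -0.29 to 5.61 in CM and 4.84 to 6.03 in Ctrl mice (-2.16 ± 0.68, adjusted p = 0.331). The T cell list had a median of -0.05, and Cd3e, a subunit of the T cell receptor complex, a log2 fold change of -0.07 ± 0.32, whose sign turned without some of the mice. Plasma cell genes had a median of -0.97 and dendritic cell genes of -0.30, with no call.

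Myeloid lists were mixed. Mature neutrophil genes had a median of -0.70 (13 of 14 below 0), classical monocyte genes -0.12, nonclassical monocyte genes -0.43, secondary and tertiary granule genes 0.00 and primary granule genes 1.52 (4 of 7 above 0), with no call in any; the secondary granule gene Ngp was a blocked call (higher). Only 3 of the 7 primary granule genes had a mean log2 CPM above 1. The summed level of that list was 62.4 to 962 CPM in CM mice (median 247) and 185 to 449 CPM in Ctrl mice (median 283). The primary granule list differed between mice: its median over members stood 5.0 above the Ctrl mean in mouse 2690, 2.8 in mouse 2708 and 2.4 in mouse 2731, and between -0.6 and 1.7 in the other 7 CM mice. Platelet and megakaryocyte genes had a median of -0.65 (17 of 18 below 0), and interferon response genes of -0.11 (9 of 19 above 0), with 0 calls in both. Isg15, of the second list, was a blocked call (higher). The summed level of the interferon list was 389 to 9330 CPM in CM mice (median 2668) and 760 to 1998 CPM in Ctrl mice (median 1341). Such a sum gives most weight to the most abundant members.

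**Figure D3:**
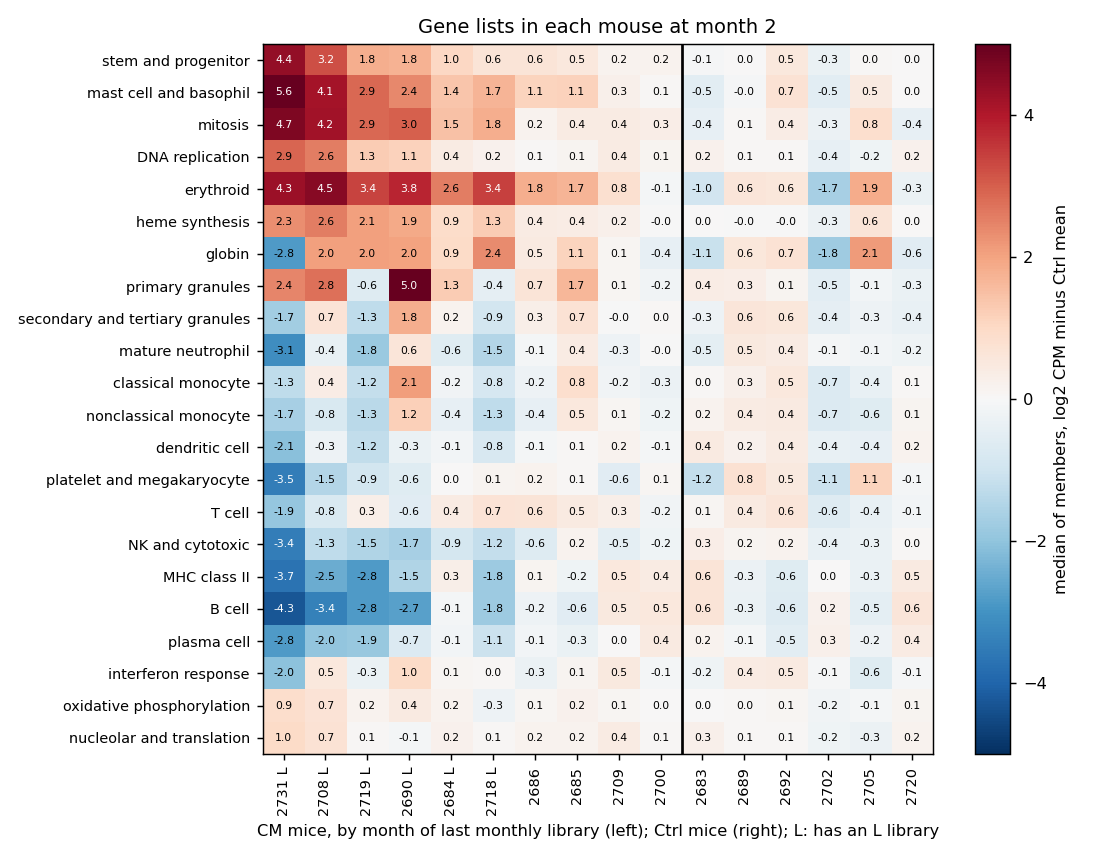
For each gene list (rows) and mouse (columns), the median over the members of the level minus the Ctrl mean (log2 CPM), red above and blue below the Ctrl mean; CM mice stand left of the line in order of the month of their last monthly library, Ctrl mice right of it, and L marks mice with an L library. Mast cell, erythroid and mitosis genes are highest and B cell genes lowest in the mice at the left, such as 2731 (5.6, 4.3, 4.7 and -4.3), while 2700 and 2709 lie near the Ctrl mice.

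Of the 10 CM mice, 6 also have a library with the time label L in place of a month, and 4 (2685, 2686, 2700 and 2709) do not and were followed to month 6. At month 2 Kit was higher in each of the 6 than in each of the 4, at 4.36 to 9.02 log2 CPM in mice with an L library and 2.56 to 4.25 in mice without. The means were 5.90 ± 1.77 (SD, n = 6) and 3.45 ± 0.76 (SD, n = 4), and the exact two-sided permutation test over 210 splits gave p = 0.00952; leaving out 1 mouse at a time gave 0.0159 to 0.0238. These are the smallest values such tests can give. The labels define overt leukemia in part by KIT-positive blasts, so having an L library may not be independent of Kit. The last monthly library of a CM mouse was taken at month 2 in 2731, month 3 in 2690, 2708 and 2719, month 4 in 2684 and month 5 in 2718. The mice without an L library were themselves above Ctrl mice in Kit, by 1.90 log2 CPM (exact two-sided permutation test, p = 0.00952, n = 4 and 6).

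Across the 10 CM mice, Kit at month 2 was lower the later the last monthly library was taken, a relation chosen after seeing the data (Pearson r = -0.869, permutation p = 0.00024; Spearman rho = -0.944, p = 0.00016; adjusted over 4 relations p = 0.00056 and 0.00032). Without 2731 and 2708, the mice farthest from the median of Kit, r was -0.837 (exact permutation p = 0.00714, n = 8). For mice without an L library the last month is the end of their monthly libraries here, so the relation was also taken within the 6 mice with an L library, where r was -0.822 and rho -0.880 (exact permutation p = 0.0333 for each, adjusted p = 0.0333). Component 1 gave r = -0.897 over the 10 mice (permutation p = 0.00028) and -0.839 within the 6 (exact permutation p = 0.0333). Within the 6, Kit without 2731 and 2708 gave r = -0.852 (exact permutation p = 0.333, n = 4). Component 1 without 2731 and 2684 gave r = -0.773 (exact permutation p = 0.5, n = 4). Since overt leukemia is defined in part by KIT-positive blasts, the month of the last monthly library may not be independent of Kit. In mouse 2731 the month-2 library was itself the last monthly library.

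**Figure D4:**
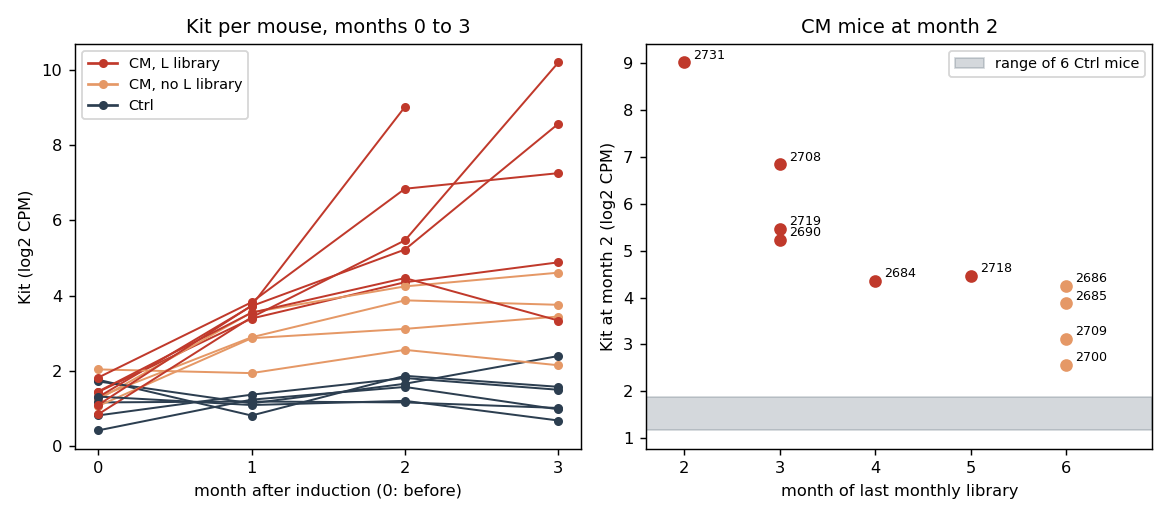
Left, Kit (log2 CPM) in each mouse at months 0 to 3, with CM mice that have an L library in red, CM mice without in orange and Ctrl mice in dark blue. Right, Kit at month 2 of the 10 CM mice against the month of their last monthly library, with the band of the 6 Ctrl mice (1.16 to 1.87); all CM mice lie above the band, and 2731, with its last monthly library at month 2, is highest at 9.02.

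Over all genes, the split of CM mice by L library called 0 genes with limma and 0 with voom, although 3266 of 13607 genes (24%) had an unadjusted p under 0.05 and 169 genes shared the lowest adjusted p of 0.0599. Without mouse 2684, the fit called 527 genes higher and 852 lower; leaving out any other mouse called 0. Among the genes at the lowest adjusted p were Mcpt1 (higher in mice with an L library by 4.54 ± 0.67 log2), H1f5, a linker histone (3.67 ± 0.52), the heme catabolism enzyme Blvrb (2.03 ± 0.31), the mitotic kinase genes Bub1 (3.50 ± 0.54) and Pbk (4.55 ± 0.72), Gkn3 (4.38 ± 0.66) and Car1 (4.33 ± 0.69). For C4b the difference was 1.28 ± 0.88 (adjusted p = 0.386). The median log2 difference was 2.69 for mitosis genes, 2.53 for erythroid and 2.45 for mast cell and basophil genes, and -2.66 for B cell and -2.23 for MHC class II genes, beside -0.17 over all genes.

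The 10 genes whose levels over the 10 CM libraries ranked most like Kit were Cadm3, Adcy6, Slc22a3, Slc18a2, Ikzf2, Col5a1, Slc43a3, Slc43a1, Gpsm2 and Dnajc6, each with a Spearman rho of 1 among 12452 genes compared. They include an adenylyl cyclase (Adcy6), a vesicular amine transporter (Slc18a2) and a zinc finger factor of the Ikaros family (Ikzf2). Ties were broken by gene identifier and the list was cut at 10 genes, so other genes may share this rho.

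Before induction, at month 0, limma called 0 of 13607 genes (208 had an unadjusted p below 0.05), and the log2 fold changes of the 20 month-2 calls lay between -0.95 and 1.14. At month 1 the same mice gave 1082 genes higher (7.95%) and 2802 lower (20.6%), in unstranded libraries of sequencing batch C, and all 20 month-2 calls were among the higher ones, with log2 fold changes of 2.94 to 9.28. At month 3, 0 genes were called (2224 with an unadjusted p under 0.05), and the 20 genes had log2 fold changes of 2.49 to 9.06. The months share their mice and differ in sequencing batch, so a month and its batch cannot be told apart.

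The change between months was tested on the difference within each mouse. Against month 0, 13 genes had a larger CM effect at month 2 (0.0955% of 13607 genes) and none a smaller one. Mcpt1 (9.56 ± 1.44, limma adjusted p = 0.0299), Wnt2, Mcpt2, C4b, Sdsl and Bex4 were among them, and so were genes that were not called at month 2 alone: Ermap (4.49 ± 0.79), Kel (3.51 ± 0.61), Ank1 (2.80 ± 0.50) and Tspo2 (2.94 ± 0.53), which belong to the red cell membrane or the heme pathway, the cell cycle factor E2f7 (4.48 ± 0.79), Tmcc2 (2.17 ± 0.38) and Sowaha (4.30 ± 0.62). This count was 0 without CM mouse 2684, 2690, 2718 or 2719 or without Ctrl mouse 2683, 2689, 2692, 2702 or 2720, 4 without CM mouse 2686, 7 without 2708, 34 without 2709, and 0.845% of the genes without 2700; with voom it was 0. Against month 1, limma and voom called 0 genes, 1353 genes (9.94%) reached an unadjusted p below 0.05, and the lowest adjusted p was 0.475. Over all genes, 63.1% had a higher CM effect at month 2 than at month 1, with a median of 0.10 log2. Of the platelet and megakaryocyte genes, 18 of 18 had a lower CM effect at month 2 than at month 1 and 17 had an unadjusted p under 0.05, with a median of -1.49 log2. None was called, the month-1 libraries were unstranded, and Ctrl mice 2683 and 2702 stood 1.2 and 1.1 below the Ctrl mean for this list at month 2 while 2689, 2692 and 2705 stood 0.8, 0.5 and 1.1 above it. Without 2702, 28 genes were called lower, 1 of them in this list, whose median was then -1.81 log2. Between months 2 and 3, limma and voom called 0 genes, 100 genes reached an unadjusted p below 0.05, and mouse 2731 has no month-3 library.

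Kit at month 2 minus Kit at month 1 was 0.25 to 5.28 log2 CPM in CM mice, above 0 in 10 of 10, and -0.02 to 1.06 in Ctrl mice, above 0 in 5 of 6. Month 3 minus month 2 was 4.73 in mouse 2719 and 3.34 in mouse 2690 and -1.13 to 0.53 in the other 7 CM mice with both libraries, against -0.60 to 0.74 in Ctrl mice. At month 1 CM mice had ranged from 1.94 to 3.83 log2 CPM and Ctrl mice from 0.81 to 1.37.

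In the training cohort, which consists of other mice, 7 CM and 7 Ctrl mice at month 2 gave 1010 genes higher (5.46% of 18508) and 1157 lower (6.25%) in the same kind of fit. Of the 20 genes called here, 19 were measured there, all 19 were higher in CM mice, and 14 were called. These 14 are 70% of the validation list and 1.39% of the training list. Of the 799 shared genes called higher in the training cohort, 518 (64.8%) were higher here, beside 48.6% of all 13232 shared genes, and 223 (27.9%) were so with an unadjusted p under 0.05, beside 7.22%. Of the 960 called lower, 817 (85.1%) were lower here, beside 51.4% of all shared genes, and 150 (15.6%) were so with an unadjusted p under 0.05, beside 3.01%. Of the T cell list, 16 of 17 members were called higher in the training cohort, with a median of 1.20, while here its median was -0.05 and none was called. Platelet and megakaryocyte genes had a median of 1.06 there and -0.65 here. The difference between the cohorts was not tested, since their tables were normalized separately. The training libraries are labelled riboerase and come from other sequencing batches, while the validation libraries of month 2 are labelled stranded, so cohort and preparation cannot be told apart in these contrasts.

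**Figure D5:**
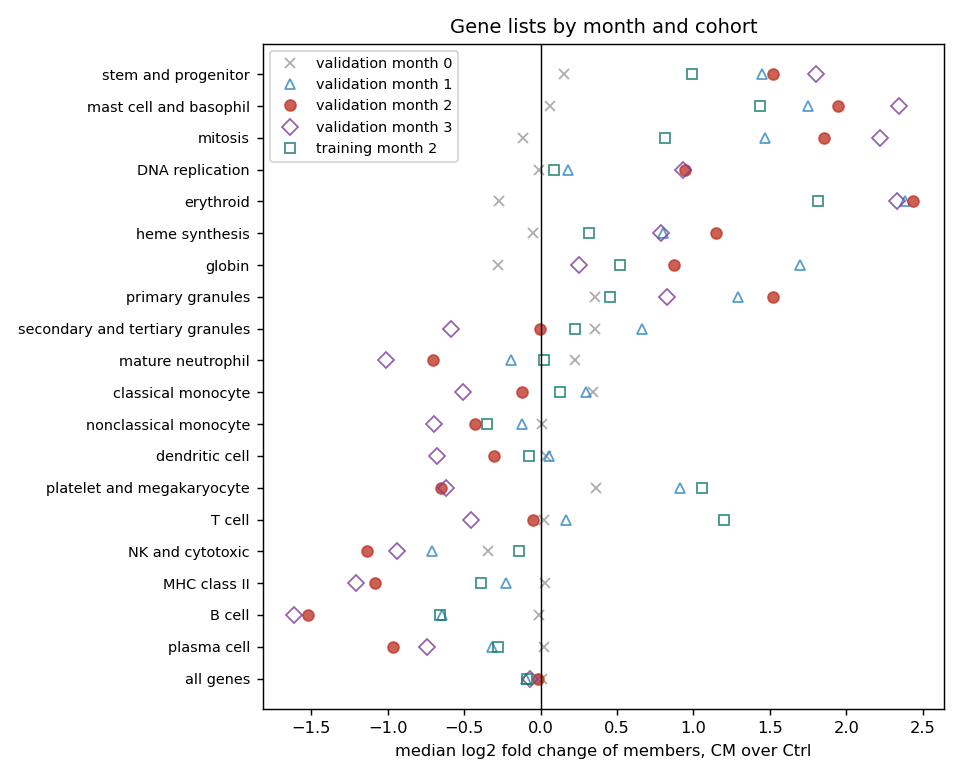
Median log2 fold change of the members of each gene list, CM over Ctrl (horizontal axis), in the validation cohort at months 0, 1, 2 and 3 and in the training cohort at month 2, with all genes in the last row. The month-2 circles of the validation cohort lie at 2.44 for erythroid and -1.52 for B cell genes, and for T cell and platelet genes they lie left of the squares of the training cohort (1.20 and 1.06).

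Because the fusion involves the partner of the RUNX factors, and mast cell and erythroid genes depend on GATA factors, the promoters of the called genes were searched for the core letters of both families. A promoter (250 bases before to 50 after the start given by RefSeq, GRCm38.p6) was found for 12 of the 20 genes. For Wnt2, Igf1, Col5a1 and Slc12a1 the start used lies inside the outer RefSeq bound of the gene. That bound is 18032772 for Wnt2 (minus strand) and 87858265 for Igf1 (plus strand), and letters near it were not searched in these genes. The letters TGTGGT or TGCGGT, on either strand, occur in 2 of these 12 (16.7%), beside 21.6% of the promoters of 9652 tested genes. The letters AGATAA or TGATAA, on either strand, occur in 3 of 12 (25%), beside 10.4%. The 4 promoters that hold any of them are printed with the matched letters in capitals, since all belong to genes that were higher in CM mice: Mcpt1 (chr14:56017714-56018013, plus strand), Wnt2 (chr6:18030396-18030695, minus strand), Gkn3 (chr6:87388886-87389185, minus strand) and Slc12a1 (chr2:125152350-125152649, plus strand).
Mcpt1: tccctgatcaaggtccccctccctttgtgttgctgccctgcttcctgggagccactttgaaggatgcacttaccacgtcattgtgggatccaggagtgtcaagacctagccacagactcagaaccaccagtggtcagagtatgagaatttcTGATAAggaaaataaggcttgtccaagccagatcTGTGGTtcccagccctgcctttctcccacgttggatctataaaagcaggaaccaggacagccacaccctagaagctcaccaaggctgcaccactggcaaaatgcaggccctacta
Wnt2: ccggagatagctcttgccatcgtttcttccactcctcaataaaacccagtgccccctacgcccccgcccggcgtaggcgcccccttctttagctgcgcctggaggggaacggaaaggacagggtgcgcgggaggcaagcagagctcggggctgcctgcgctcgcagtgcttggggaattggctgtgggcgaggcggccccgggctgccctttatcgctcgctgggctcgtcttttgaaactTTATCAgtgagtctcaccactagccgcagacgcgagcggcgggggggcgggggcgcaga
Gkn3: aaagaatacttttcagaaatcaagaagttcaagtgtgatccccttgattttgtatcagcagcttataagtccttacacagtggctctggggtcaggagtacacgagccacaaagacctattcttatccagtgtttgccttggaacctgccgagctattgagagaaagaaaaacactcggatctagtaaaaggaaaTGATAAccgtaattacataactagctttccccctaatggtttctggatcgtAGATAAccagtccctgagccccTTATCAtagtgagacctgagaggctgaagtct
Slc12a1: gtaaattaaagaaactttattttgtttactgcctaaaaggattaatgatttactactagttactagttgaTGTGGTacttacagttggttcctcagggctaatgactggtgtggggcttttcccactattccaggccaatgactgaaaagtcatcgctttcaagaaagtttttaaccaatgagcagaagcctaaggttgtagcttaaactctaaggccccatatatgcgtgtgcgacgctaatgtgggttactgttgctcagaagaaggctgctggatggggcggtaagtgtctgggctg
In the Mcpt1 promoter the GATA letters start 99 bases and the RUNX letters 65 bases before the gene start, and Gkn3 holds the GATA letters 3 times. A match describes the sequence and does not show a bound site.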

How the data were processed

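RNA from retro-orbital blood labelled PBMC was sequenced as stranded TruSeq libraries. Per the submitters' processing notes the authors used STAR, Subread and featureCounts on GRCm38, with versions not given in the sources used here, and per the file name genes with at least 5 CPM in at least 2 samples were kept. The deposited values are log2 CPM, made by the authors from gene counts; the values fit a prior of 0.25 reads, and within 0.01 read, 100% of the values of each library gave back whole reads. Fits used limma (version 3.58.1, R 4.3.3) with an intensity trend, sex as a covariate and Benjamini-Hochberg adjustment over all genes, called at an adjusted p under 0.05; alternatives were voom on the recovered reads, other scalings, a prior of 2 reads, a mean log2 CPM above 1, the mouse as a block over months 0 to 3 and leaving out each mouse. The block pairs libraries of the same mouse, as labelled. Single values were compared by exact permutation, and correlations over 10 mice with 100000 permutations (scipy 1.17.1). The main limma fit was tested on simulated reads, with the spread of the Ctrl libraries in both arms and changes placed only in genes well covered in Ctrl libraries. That setting differs from these data, where CM mice spread more widely and most calls had few Ctrl reads. Mice are the replicates. Log2 fold changes of genes near 0 reads depend on the prior. Floors (3 reads) and intervals cover counting error only.

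The members, lists and tests were chosen with earlier results of these data known. Named genes are the 12 largest increases and 12 largest decreases among calls with a mean log2 CPM above 1 that lie on the same side of the Ctrl mean in at least 9 of 10 CM mice, predicted genes left out, which gave 4 genes; up to 4 called members per list; Kit, Cbfb, Runx1, MHY11, Gstt1, C4b and Cpa3; the 10 genes most like Kit; and up to 8 genes by adjusted p in comparisons with fewer than 20 calls. The name pattern used to leave out predicted genes also matched C4b, which is not a predicted gene, so C4b is not among those 4. Other members were named after their values were seen. Names came from the ID table, with 12612 of 13607 IDs matched, and positions from RefSeq GRCm38.p6. A result for 1 gene is not reported here.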

Additional observations from a re-analysis of the deposited data

Results flagged for a closer look

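Of 54 groups of libraries searched for a library far from the others, 9 were flagged, where chance flags about 1 in 20 groups. Among CM mice these were mouse 2731 for Cbfb at 8.10 log2 CPM and for Runx1 at 8.67, mouse 2690 for the complement gene C4b at 6.85, and mouse 2700 for MHY11 at -1.45, the library that went against its label. Among Ctrl mice they were mouse 2705 for Wnt2 at -0.95 and Bex4 at -3.72, mouse 2720 for Sdsl at -4.12, mouse 2702 for Smarca1 at -3.75 and mouse 2689 for Hjv at -3.94. For Wnt2, Bex4, Sdsl, Smarca1 and Hjv the Ctrl outlier is the only Ctrl library with a read. In such groups any library with a read stands apart from the rest, so the chance rate of 1 in 20 does not describe them.

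The CM effect at month 2 differed from that at month 0 in 13 genes (limma, adjusted p under 0.05 on the differences within each mouse). The larger effects on the log2 scale were those of Mcpt1 at 9.56, Wnt2 at 8.93, Mcpt2 at 8.73, Bex4 at 6.70 and Sdsl at 6.16. Ermap followed at 4.49, E2f7 at 4.48, Sowaha at 4.30, C4b at 4.09, Kel at 3.51, Tspo2 at 2.94, Ank1 at 2.80 and Tmcc2 at 2.17. The month-0 libraries were unstranded and of another sequencing batch, and the part of preparation in these differences was not tested.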

How the results depend on the processing

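The number of genes higher in CM mice at month 2, 20 as reported, was 0 with voom, 1 with quantile normalization, 1 with a prior of 2 reads, 4 above a mean log2 CPM of 1, 7 without the HW controls, 39 with median-ratio scaling without mouse 2700, 54 without mice 2700 and 2731, these last settings chosen after seeing the data, and 2 to 72 leaving out 1 mouse at a time. With the mouse as a replicate block over months 0 to 3 it was 433, with 55 lower; lower genes numbered 1 with median-ratio scaling without 2700, 2 without 2700 and 2731, and 0 to 1 leaving out a mouse. The 13 genes whose effect differed from month 0 are 0.0955% of those tested; the share was 0.00802% (1 gene) above a mean log2 CPM of 1, 0.0294% with median-ratio scaling, 0.0367% with no replicate block, 0.169% without the sex covariate, 0.022% with a prior of 2 reads and with quantile normalization, 0% with voom, and 0% to 0.845% leaving out a mouse. Against month 1 the range leaving out a mouse was 0 to 28, for the split by L library 0 to 1379, and in the training cohort 1261 to 2407. Kit passed with the replicate block (3.37, limma adjusted p = 0.00189), with median-ratio scaling without 2700 (3.70) and without 2700 and 2731 (3.19), and ranged from 2.91 to 3.69 leaving out a mouse. Cd3e, at -0.07, was 0.10 without 2700 and 2731 and ranged from -0.22 to 0.15. The causes were not tested. For genes with at most 10 Ctrl reads in all, the size of the fold depends on the prior.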
